A study of Mus musculus with 17 samples.

Results

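Immature blood-forming cells of the bone marrow, hematopoietic stem and progenitor cells (HSPC), of mice given lipopolysaccharide together with an antibody against the interleukin-10 receptor were compared, 72 h after the injection, with HSPC of mice given phosphate-buffered saline. The comparison takes 8 of the 17 libraries of the series, chosen by their sample titles. In it are 3 libraries of the group that received lipopolysaccharide (LPS) and the blocking antibody (anti-IL-10R), called antibody libraries 1, 2 and 3 here, and 5 libraries of the phosphate-buffered saline (PBS) group, whose titles say Day 0. All mice were wild-type C57BL/6J, all injections were intraperitoneal, and no genotype or Cre line enters the design. The LPS and antibody amounts are given as 5 and 100 micrograms in the design text and as 5 and 100 milligrams in the protocol, and neither unit is assumed here. Bone marrow cells were sorted by flow cytometry straight into RNA lysis buffer, and polyadenylated RNA was sequenced. The gates, the age and sex of the mice, and whether each library is 1 mouse or a pool were not given in the sources used here. P-values therefore measure the spread between these libraries, which may be partly technical. No library received the antibody without LPS, so the antibody's part in this comparison cannot be told apart from that of LPS. The series also holds LPS alone at 72 h (3 libraries) and LPS with antibody at 24 h (3 libraries). The antibody libraries at 72 h are set against both further on. The column headers name the PBS libraries in another style than the treated ones, and any batch between them cannot be told apart from the treatment.

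LPS is sensed through Toll-like receptor 4, on marrow stroma and macrophages and on HSPC themselves, and the cytokines and interferons that follow push stem cells out of rest and towards myeloid output. Interleukin-10 acts through a receptor of the chains IL-10RA and IL-10RB on JAK1, TYK2 and STAT3 and is a main brake on Toll-like receptor responses, which the antibody is meant to remove. The series title names the question: what impaired interleukin-10 receptor signaling does to stem cells under inflammation.

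The antibody libraries held 11985334, 10516722 and 14805232 counted reads, against 11879018 to 15597602 in the PBS libraries. Levels are in CPM, the share of a library's counts scaled with TMM factors. These factors lay between 0.9555 and 1.018 in the antibody group and between 1.024 and 1.119 in the PBS group. A gene is called where edgeR's quasi-likelihood test, fitted over all 17 libraries, gave a Benjamini-Hochberg adjusted p below 0.05. Fold changes are on the log2 scale, antibody over PBS, with their standard error (SE), for 3 against 5 libraries.

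In all, 14920 genes were tested and 1975 (13.2%) were called, 1016 higher (6.81%) and 959 lower (6.43%) in the antibody group. The shares called higher and lower are the background for all counts of called list members against PBS given below. With upper-quartile in place of TMM scaling the split became 659 higher and 1348 lower, and the median over all genes moved from -0.002 to -0.099. The decreases were larger than the increases: among called genes, 538 fell at least 2-fold (3.61% of tested genes) and 117 rose at least 2-fold (0.784%). The split depended on expression level: with only genes above the median mean level, 984 were called higher and 356 lower. In 1824 of the called genes (12.2% of tested genes) every antibody library lay on the same side of all PBS libraries; over all tested genes this held for 26.9%, 13.4% with antibody higher and 13.6% with antibody lower. In such sorted bulk samples, fewer cells of a type and less RNA per cell cannot be told apart.

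The 3 antibody libraries were not alike. The median absolute log2 difference across genes was 0.181 to 0.274 between any pair of PBS libraries and 0.249 to 0.406 between any pair of antibody libraries. Antibody library 2 lay nearest to the PBS libraries (0.254 to 0.353), and libraries 1 (0.376 to 0.448) and 3 (0.338 to 0.486) lay farther away. Library 2 was the antibody library nearest to PBS for 70.8% of the genes called lower and 48.7% of those called higher. On a scale of CPM + 1, 332 genes (2.23%) in library 1, 4 (0.0268%) in library 2 and 10 (0.067%) in library 3 stood at least 2-fold above every one of the 7 other libraries. At least 2-fold below all 7 others stood 144 genes (0.965%) in library 1, 0 in library 2 and 233 (1.56%) in library 3. The number of called genes rests on which libraries are in the fit: it was 693 without antibody library 1 (553 higher, 3.63% of the genes tested then, and 140 lower, 0.918%), 583 without antibody library 3, 941 without PBS library 2 (490 higher, 3.29%, and 451 lower, 3.03%), 1223 without PBS library 3 and 1019 without PBS library 5. Without both PBS library 2 and antibody library 1, which stand apart for the macrophage and interferon genes described further on, 43 genes were called, 40 higher (0.264%) and 3 lower (0.0198%). In every one of the 8 fits that leave out 1 library, 320 genes were called, 239 higher and 81 lower.

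**Figure D1:**
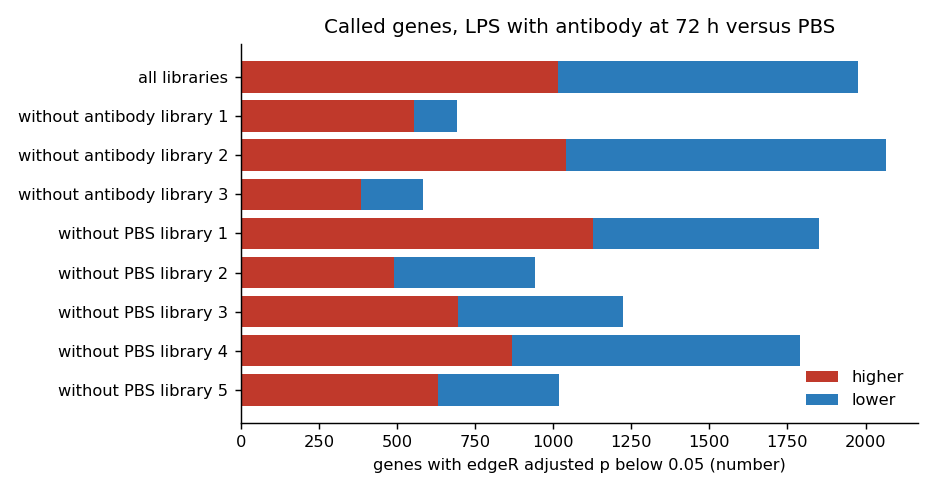
Number of genes called in the comparison of LPS with antibody at 72 h against PBS (x axis), with all libraries and with each library left out in turn (y axis), split into genes higher and lower in the antibody group. The bar is 1975 genes with all libraries and shortest, at 583, without antibody library 3.

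Genes of ribosome production were, as a group, higher in every antibody library. Of 24 listed factors that make and assemble ribosomes, all 24 were tested, 18 rose, none fell, and the median log2 fold change was 0.66, against -0.002 over all tested genes. Summed over the list, the antibody libraries stood at 10160, 9818 and 10600 CPM and the PBS libraries at 5181 to 7148 CPM. Ncl, nucleolin, a major nucleolar protein of ribosomal RNA synthesis and processing, was at 1834, 1370, 1351, 1580 and 1579 CPM in PBS libraries 1 to 5. In antibody libraries 1 to 3 it was at 3229, 2919 and 3005 CPM (log2 fold change 0.98 ± 0.14 SE, adjusted p = 0.00342). The groups did not overlap, and even the highest PBS library lay well below the lowest antibody library. Nolc1, a chaperone of small nucleolar ribonucleoproteins, was at 287, 175, 176, 221 and 196 CPM in PBS and at 415, 399 and 393 CPM with antibody (log2 fold change 0.93 ± 0.17 SE, adjusted p = 0.00805). Ddx21, a helicase of ribosomal RNA transcription and processing, was at 409.5, 292, 294, 331 and 339 CPM and 663, 551 and 541 CPM (log2 fold change 0.81 ± 0.16 SE, adjusted p = 0.00849). For Nolc1 the antibody libraries lay within a narrow band. Npm1, nucleophosmin, was at 1203 to 1706 CPM in PBS and at 2148, 2287 and 2982 CPM with antibody (log2 fold change 0.81 ± 0.17 SE, adjusted p = 0.0118), with library 3 highest. The Npm1 call was lost without antibody library 3 (adjusted p = 0.0616), and those of Ncl, Nolc1 and Ddx21 held whichever library was left out. The count of 18 was 11 without antibody library 3 and 1 without both PBS library 2 and antibody library 1, and the median log2 fold change was 0.62 in the last of these fits.

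Amino acid supply moved in the same direction. Of 20 listed genes of amino acid uptake, serine and one-carbon synthesis and the ATF4 stress response, 10 rose and none fell (median log2 fold change 0.56). Slc7a5, a chain of the large neutral amino acid transporter LAT1, was at 156, 94.7, 108, 138 and 112 CPM in PBS and at 248, 239 and 259 CPM with antibody (log2 fold change 1.03 ± 0.17 SE, adjusted p = 0.00628). Psat1, an enzyme of serine synthesis, was at 182, 114, 132, 159.7 and 134 CPM and 239.8, 254 and 328 CPM (log2 fold change 0.92 ± 0.15 SE, adjusted p = 0.00628). Mthfd2, the mitochondrial folate enzyme of one-carbon metabolism, was at 48.4, 34.5, 24.9, 35.6 and 29.8 CPM and 77.5, 63.1 and 110.4 CPM (log2 fold change 1.27 ± 0.22 SE, adjusted p = 0.00634). For these 3 genes the groups did not overlap and the call held whichever library was left out. Asns, asparagine synthetase, was at 36.4, 18.4, 32.1, 32.9 and 34.5 CPM in PBS and at 102, 54.1 and 71.8 CPM with antibody (log2 fold change 1.30 ± 0.35 SE, adjusted p = 0.028), with library 1 highest. Atf4 itself, the transcription factor that drives many of these genes, was at 151 to 209 CPM in PBS and at 313, 224 and 272 CPM with antibody, and missed the threshold (adjusted p = 0.0716). At low levels, Slc7a11, the cystine transporter, was at 0.0702 to 1.95 CPM in PBS and at 2.1, 2.99 and 5.59 CPM with antibody (log2 1.90 ± 0.55, adjusted p = 0.0361). Chac1, a glutathione-degrading enzyme, was at 0.501 to 0.945 CPM in PBS and at 1.85, 1.21 and 2.4 CPM (log2 1.48 ± 0.37, adjusted p = 0.0199). Calls among Asns, Slc7a11 and Chac1 were lost without 1 library, given with the number of calls lost and their adjusted p: antibody library 1 (2, adjusted p 0.0552 to 0.108) and antibody library 3 (3, adjusted p 0.0688 to 0.164). The same was seen without PBS library 2 (2, adjusted p 0.0644 to 0.0796) and PBS library 3 (1, adjusted p = 0.0678). The count of 10 was 4 without antibody library 3, 5 without PBS library 2 and 1 without both PBS library 2 and antibody library 1.

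Glycolysis showed 9 of 18 listed genes higher and none lower (median log2 fold change 0.62). Ldha, lactate dehydrogenase, was at 978, 561, 540.4, 726 and 572 CPM in PBS and at 1373, 1358 and 1486 CPM with antibody (log2 fold change 1.06 ± 0.20 SE, adjusted p = 0.00837). Slc16a3, the lactate exporter MCT4, was at 8.86, 8.97, 10.6, 9.52 and 5.89 CPM and 22.4, 23.9 and 16.5 CPM (log2 fold change 1.25 ± 0.22 SE, adjusted p = 0.00629). For both genes the antibody libraries lay above every PBS library. Pfkp, a platelet-type phosphofructokinase, was at 66.7 to 112 CPM in PBS and at 223, 149.5 and 208 CPM with antibody (log2 1.16 ± 0.21, adjusted p = 0.00732). Pkm, pyruvate kinase, was at 882 to 1270 CPM in PBS and at 1630, 1664 and 1601 CPM (log2 0.66 ± 0.14, adjusted p = 0.0118). Slc2a1, the glucose transporter GLUT1, was at 18.9 to 29.3 CPM and at 40.9, 29.1 and 32.2 CPM (log2 0.57 ± 0.18, adjusted p = 0.0469), with antibody library 2 inside the PBS range. Endoplasmic reticulum chaperones gave 3 of 19 higher (median 0.52), among them Hspa5, the chaperone BiP, at 473 to 1100 CPM in PBS and 1054, 1245 and 2053 CPM with antibody (log2 0.88 ± 0.27, adjusted p = 0.0406). For Hspa5 antibody library 1 lay inside the PBS range and library 3 far above it. Dnajb11, its cochaperone, was at 74.4 to 118 CPM and 145, 146 and 199 CPM (log2 0.75 ± 0.18, adjusted p = 0.0164). Of 24 respiratory chain genes 3 rose and none fell (median 0.35), against 6.81% of all tested genes called higher. Atp5b, an ATP synthase subunit, was at 909 to 1186 CPM and 1395, 1452 and 1710 CPM (log2 0.57 ± 0.14, adjusted p = 0.0194). Uqcrfs1, of complex III, was at 77.9 to 112 CPM and 137, 126 and 140.4 CPM (log2 0.48 ± 0.11, adjusted p = 0.016). The calls of Ldha, Slc16a3, Pfkp and Pkm held whichever library was left out. The others given here were lost without antibody library 1 (1, adjusted p = 0.161) and antibody library 3 (5, adjusted p 0.0649 to 0.22). Among PBS libraries, calls were lost without PBS library 2 (2, adjusted p 0.0905 to 0.0917), PBS library 3 (2, adjusted p 0.0652 to 0.0819), PBS library 4 (1, adjusted p = 0.0808) and PBS library 5 (2, adjusted p 0.0594 to 0.0726). The count of 9 was 5 without antibody library 3, 5 without PBS library 2 and 0 without both PBS library 2 and antibody library 1 for glycolysis, and both the chaperone and the respiratory chain counts were 0 without antibody library 3.

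**Figure D2:**
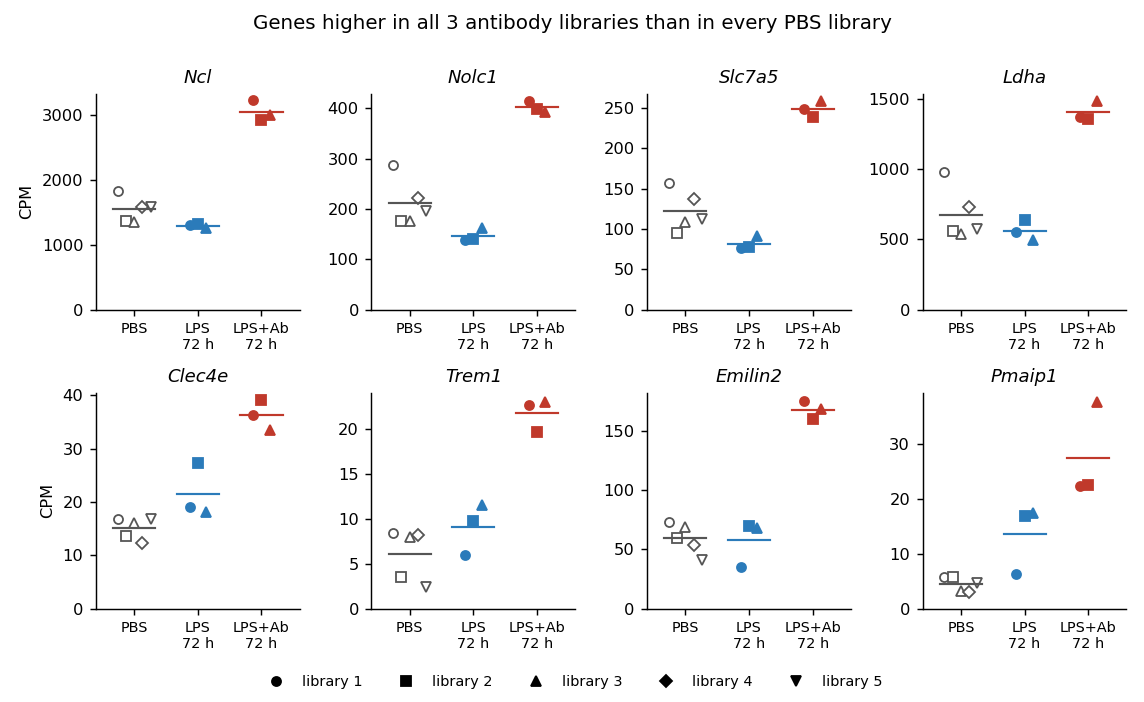
CPM (y axis, linear, from 0) of 8 genes in each PBS library, each library of LPS alone at 72 h and each library of LPS with antibody (Ab) at 72 h. Points are libraries, symbols give the library number within its group and lines are group means; for each gene the 3 antibody libraries lie above all 5 PBS libraries.

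Fewer cell cycle genes were called. Of 26 DNA replication genes 6 rose and none fell (median log2 fold change 0.25), and of 24 genes of mitosis and G2 none was called (median 0.13). Orc1, the origin recognition subunit, was at 21.8, 16.1, 17.6, 20.2 and 17.8 CPM in PBS and 27.8, 31.2 and 32.3 CPM with antibody (log2 fold change 0.70 ± 0.13 SE, adjusted p = 0.00791), without overlap. Mcm4, of the replicative helicase, was at 194 to 238 CPM and 254, 271 and 333 CPM (log2 0.39 ± 0.12, adjusted p = 0.0488). Mcm2, of the same helicase, was at 263 to 334 CPM and 324, 356 and 397 CPM and missed the threshold (adjusted p = 0.18). Rrm2, of ribonucleotide reductase, was at 131 to 216 CPM and 183, 258 and 432 CPM (log2 0.82 ± 0.25, adjusted p = 0.039). For Rrm2 library 1 lay inside the PBS range and library 3 above all others. Mki67, the proliferation marker, was at 629 to 1043 CPM in PBS and at 810.4, 796 and 890.4 CPM with antibody, inside the PBS range. Among 19 genes of cyclins, their inhibitors and quiescence, 3 fell and none rose, against 6.43% and 6.81% of all tested genes. Btg2, an antiproliferative protein, was at 31.3, 53.7, 30.7, 32.7 and 36.9 CPM in PBS and at 17.7, 18.7 and 14.6 CPM with antibody (log2 fold change -1.12 ± 0.22 SE, adjusted p = 0.0088). Foxo3, a transcription factor of stem cell rest, was at 138 to 166 CPM and 101, 104 and 89.7 CPM (log2 -0.58 ± 0.14, adjusted p = 0.0178). Cdkn2c, the inhibitor p18, was at 25 to 42.4 CPM and 14.1, 13.2 and 25 CPM (log2 -1.0 ± 0.29, adjusted p = 0.0342). None of these 3 overlapped between the groups, although for Cdkn2c antibody library 3 (24.96 CPM) lay barely below PBS library 1 (25.0 CPM). Cdkn1a, the inhibitor p21, was at 15.7 to 22.4 CPM in PBS and at 70.2, 20.2 and 19.9 CPM with antibody, high in library 1 alone (adjusted p = 0.0663). In the Myc network 2 of 12 genes fell, against 6.43% of all tested genes. Mycn, a Myc family member, was at 17.7 to 30.2 CPM in PBS and at 8.49, 14.7 and 4.46 CPM (log2 -1.41 ± 0.41, adjusted p = 0.0372). Mxd4, a Myc antagonist, was at 77.3 to 101 CPM in PBS and at 47.4, 53.6 and 41.6 CPM (log2 -0.93 ± 0.22, adjusted p = 0.0184). Myc was at 251 to 326 CPM and 387, 385 and 305 CPM and missed the threshold (adjusted p = 0.2). Only Orc1 and Btg2 of these 8 called genes kept the call whichever library was left out. The rest were lost without antibody library 1 (4, adjusted p 0.0627 to 0.121), antibody library 2 (1, adjusted p = 0.105) and antibody library 3 (5, adjusted p 0.0765 to 0.261). Calls were also lost without PBS library 1 (1, adjusted p = 0.0571), PBS library 2 (4, adjusted p 0.0735 to 0.106), PBS library 3 (4, adjusted p 0.0544 to 0.0728), PBS library 4 (2, adjusted p 0.0544 to 0.0583) and PBS library 5 (5, adjusted p 0.052 to 0.0824). The count of 6 was 3 without antibody library 1, 1 without antibody library 3, 3 without PBS library 2, 2 without PBS library 3, 3 without PBS library 4, 2 without PBS library 5, 0 without both PBS library 2 and antibody library 1 and 3 with upper-quartile scaling for replication.

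Receptors of inflammatory myeloid cells gave 4 of 21 listed genes higher and none lower (median log2 fold change -0.13), and 3 higher and 2 lower with upper-quartile scaling. Of the 21 genes, 10 had a positive log2 fold change, so the list as a whole did not rise. It summed to 945.5, 1166 and 1365 CPM with antibody, inside the PBS range of 719.1 to 1574 CPM. The called genes are given first. Clec4e, the C-type lectin Mincle, was at 16.8, 13.7, 16.1, 12.3 and 16.8 CPM in PBS and at 36.2, 39.1 and 33.5 CPM with antibody (log2 fold change 1.26 ± 0.18 SE, adjusted p = 0.00311). Trem1, an amplifier of myeloid inflammation, was at 8.42, 3.54, 7.97, 8.14 and 2.46 CPM and 22.7, 19.6 and 23 CPM (log2 fold change 1.83 ± 0.35 SE, adjusted p = 0.00834). Clec5a, another C-type lectin, was at 37.8, 15.3, 31.3, 28.6 and 4.28 CPM and 83.1, 51.3 and 101 CPM (log2 fold change 1.74 ± 0.50 SE, adjusted p = 0.0341). The groups did not overlap for any of the 3, although Clec5a ranged widely within PBS. Fcgr2b, the inhibitory IgG receptor, was at 20.6 to 60.6 CPM and 63.6, 84.4 and 113 CPM (log2 1.0 ± 0.31, adjusted p = 0.0472). In a separate list of 20 cytokine receptors 2 rose and 1 fell (median log2 fold change -0.18), against 6.81% and 6.43% of all tested genes. The 2 were Csf2rb and Ifngr1. Csf2rb, the common beta chain of the receptors for GM-CSF, IL-3 and IL-5, was at 149, 113, 132, 123 and 107 CPM in PBS and at 554, 208 and 286 CPM with antibody (log2 fold change 1.48 ± 0.29 SE, adjusted p = 0.00849), highest in library 1. Ifngr1, a chain of the interferon gamma receptor, was at 123 to 193 CPM and 248, 279 and 200.1 CPM (log2 0.61 ± 0.17, adjusted p = 0.0278). Among 14 listed myeloid transcription factors 1 rose and none fell (median 0.0), near the share of all tested genes. That 1 was Cebpb, a transcription factor of emergency granulopoiesis, at 3.51 to 9.52 CPM and 17.9, 10.2 and 19.1 CPM (log2 1.18 ± 0.33, adjusted p = 0.032). On the Toll-like receptor and NF-kB list 3 of 26 genes rose (median 0.07), against 6.81% of all tested genes. Of these 3, 1 also rose with upper-quartile scaling. Myd88, the adaptor of most Toll-like receptors, was at 66.1, 53.4, 52.9, 58.6 and 46 CPM in PBS and at 96.3, 76.8 and 119 CPM with antibody (log2 fold change 0.81 ± 0.16 SE, adjusted p = 0.00897). Nfkbib, an NF-kB inhibitor, was at 17.2 to 24.9 CPM in PBS and at 36.6, 27.2 and 30.1 CPM (adjusted p = 0.0483). Traf6, a signaling ubiquitin ligase, was at 53.4 to 61.7 CPM in PBS and at 109.9, 71.3 and 60.1 CPM (adjusted p = 0.0478), which overlapped in library 3. Tlr4, the LPS receptor, was at 11.9, 26.9, 14.5, 13.1 and 15.6 CPM in PBS and at 9.84, 20.2 and 19.2 CPM with antibody, and Cd14, its co-receptor, at 3.46 to 8.34 CPM and 8.16, 5.89 and 5.87 CPM, overlapping in both cases. Clec4e, Trem1 and Csf2rb kept the call whichever library was left out. Other calls given here were lost without antibody library 1 (6, adjusted p 0.0534 to 0.262), antibody library 2 (2, adjusted p 0.0664 to 0.0741) and antibody library 3 (5, adjusted p 0.0504 to 0.182). The same was seen without PBS library 1 (2, adjusted p 0.0583 to 0.0641), PBS library 2 (5, adjusted p 0.0582 to 0.0985), PBS library 3 (4, adjusted p 0.0598 to 0.0824), PBS library 4 (1, adjusted p = 0.0712) and PBS library 5 (5, adjusted p 0.0539 to 0.0896).

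The greatest increases among well-expressed, called, non-overlapping genes included several outside these lists. Mt1, a metallothionein that binds zinc, was at 44.1, 24.5, 26.7, 26.3 and 7.79 CPM in PBS and at 98.1, 85 and 100.3 CPM with antibody (log2 fold change 1.87 ± 0.46 SE, adjusted p = 0.0199). It was the 1 gene called in a list of 7 metallothionein and zinc-handling genes, in which the other metallothionein, Mt2, was at 2.04 to 12 CPM in PBS and at 73.1, 11.5 and 5.59 CPM with antibody (adjusted p = 0.0943). Emilin2, an extracellular matrix protein, was at 73.3, 59.7, 69, 53.4 and 40.8 CPM and 175, 160.0 and 168 CPM (log2 fold change 1.50 ± 0.24 SE, adjusted p = 0.00521). Gda, guanine deaminase, was at 64.4, 35.1, 79.5, 68 and 9.69 CPM and 119.7, 169 and 198 CPM (log2 fold change 1.66 ± 0.49 SE, adjusted p = 0.0379). Emilin2 was close to the same in all antibody libraries, while Gda varied widely within PBS. Per1, a circadian repressor, was at 21.8 to 36.1 CPM in PBS and at 156, 58.7 and 39.5 CPM with antibody (log2 fold change 1.67 ± 0.45 SE, adjusted p = 0.0283), with library 1 far above libraries 2 and 3. Snhg3, a small nucleolar RNA host gene, was at 14.1 to 20 CPM in PBS and at 50.2, 57.6 and 30.4 CPM with antibody (log2 1.51 ± 0.24, adjusted p = 0.00521); it overlaps Gm17300, and how shared reads were counted was not given. Pmaip1, the proapoptotic protein Noxa, was at 5.78, 5.75, 3.15, 3.07 and 4.63 CPM in PBS and at 22.4, 22.6 and 37.7 CPM with antibody (log2 fold change 2.62 ± 0.30 SE, adjusted p = 0.00166). It is 1 of 2 genes of 16 in the BCL2 family that rose, against 6.81% of all tested genes. The other was the pore-forming Bak1, at 80.1 to 131 CPM in PBS and 186, 153 and 198 CPM with antibody (log2 0.75 ± 0.17, adjusted p = 0.0141). Of the interferon-induced transmembrane genes 3 of 5 rose. Ifitm1 was at 225, 185, 138, 97.9 and 238 CPM and 718, 309 and 612 CPM (log2 fold change 1.63 ± 0.33 SE, adjusted p = 0.00936). Ifitm2 was at 216 to 243 CPM and 362, 315 and 300.2 CPM (log2 0.49 ± 0.12, adjusted p = 0.0225). Ifitm3 was at 119 to 280.4 CPM and 1126, 336 and 291 CPM (log2 1.67 ± 0.44, adjusted p = 0.0256). Their groups did not overlap, which was a condition of the choice for Ifitm1 and Ifitm3. Ifitm3 was at its highest in library 1 by a wide margin, and without library 1 its log2 fold change was 0.80. Emilin2, Snhg3, Pmaip1 and Ifitm1 kept the call whichever library was left out. Other calls given here were lost without antibody library 1 (5, adjusted p 0.0516 to 0.206), antibody library 2 (1, adjusted p = 0.0619) and antibody library 3 (3, adjusted p 0.0602 to 0.116). Among PBS libraries, calls were lost without PBS library 2 (3, adjusted p 0.0525 to 0.0846), PBS library 3 (1, adjusted p = 0.0529) and PBS library 5 (2, adjusted p 0.0541 to 0.0615).

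**Figure D3:**
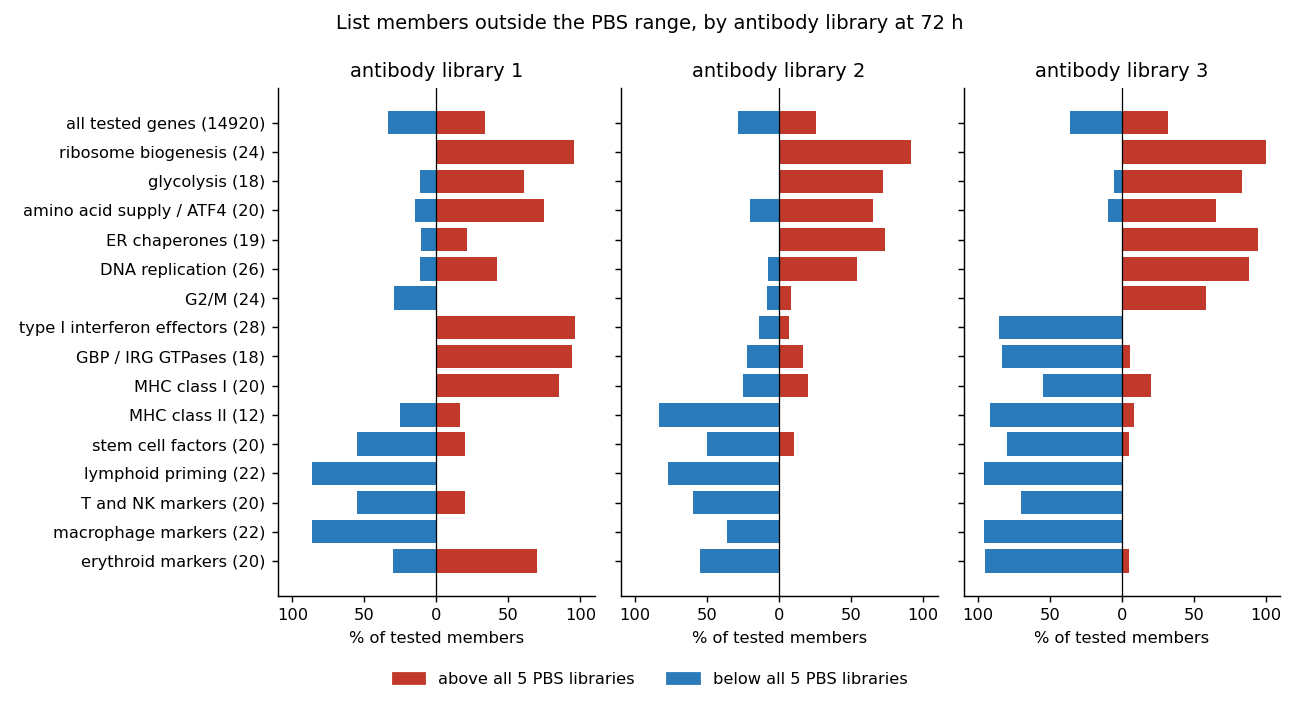
For each antibody library at 72 h (panels), the percentage of tested members of each list (rows, with the number tested) that lay above all 5 PBS libraries (right of 0) or below all 5 (left of 0); the first row gives all tested genes. Ribosome biogenesis members lie above PBS in all 3 panels, whereas type I interferon effectors lie above in library 1 and mostly below in library 3.

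The interferon response split the antibody libraries. Of 28 tested type I interferon effectors, 27 lay above all 5 PBS libraries in antibody library 1, 2 in library 2 and none in library 3, where 24 lay below all 5. For all tested genes the shares above PBS were 33.6%, 25.5% and 32.1% in libraries 1 to 3, and 36.3% lay below PBS in library 3. None of the 28 was called (median log2 fold change 0.77, and -0.51 without antibody library 1). Isg15, a ubiquitin-like interferon-induced protein, was at 22.9, 19.3, 8.95, 14.9 and 14.8 CPM in PBS and at 170.5, 15.5 and 4.74 CPM with antibody. Ifit1, which blocks translation of viral RNA, was at 13.9, 11.6, 7.75, 10.2 and 9.54 CPM and 88.2, 9.15 and 2.33 CPM. In both, library 1 lay above and library 3 below every PBS library. The GTPases induced mainly by interferon gamma (the GBP and IRG families, whose close copies can share reads) gave 17 of 18 tested members above PBS in library 1, 3 in library 2 and 1 in library 3, where 15 lay below.

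Gbp2, a guanylate-binding protein, was at 34.7, 39.8, 32.2, 30.5 and 46.9 CPM in PBS and at 1437, 25 and 19.9 CPM with antibody, and only library 1 lay above PBS (adjusted p = 0.0459). Igtp, an immunity-related GTPase, was at 47, 46.1, 39.4, 39.7 and 44.6 CPM and 668, 52.6 and 27.7 CPM. Iigp1 was at 13.4 to 22.9 CPM in PBS and 769, 16 and 4.95 CPM with antibody, and Tgtp1 at 19.7 to 35.6 and 539, 20.2 and 7.36 CPM. These 4 with Gbp5, at 25.9 to 34 CPM in PBS and 446, 22.3 and 33.9 CPM with antibody (adjusted p = 0.0367), were the well-expressed genes for which library 1 lay farthest above the 7 other libraries. Gbp3 was the exception in that all 3 antibody libraries exceeded PBS: it was at 76, 64.2, 66.4, 79.5 and 56.1 CPM and 463, 114 and 114 CPM (log2 fold change 1.75 ± 0.38 SE, adjusted p = 0.0119). The chemokines that draw T cells followed library 1 as well. Cxcl9 was at 6.16, 7.71, 4.3, 4.51 and 10.7 CPM in PBS and at 774, 4.48 and 0.424 CPM with antibody (adjusted p = 0.044). Cxcl10 was at 3.58, 3.54, 1.61, 3.69 and 3.79 CPM and 429, 3.74 and 0.849 CPM (adjusted p = 0.0229). Ccl5 was at 4.91 to 12.2 CPM and 367, 12.7 and 3.11 CPM (adjusted p = 0.0385). For Cxcl9 and Cxcl10, library 3 stood below every PBS library and library 2 within the PBS range. Without antibody library 1 the sign turned: the log2 fold change was -0.69 for Gbp2, -0.05 for Gbp5, -1.48 for Cxcl9, -0.50 for Cxcl10 and -0.16 for Ccl5. The class I antigen presentation list had 17 of 20 members above PBS in library 1, 4 in library 2 and 4 in library 3. Over all tested genes these shares were 33.6%, 25.5% and 32.1%. Its 1 called gene was the peptide-trimming Erap1, at 164 to 188 CPM and 320.5, 192 and 213 CPM (adjusted p = 0.0429), while H2-K1, a heavy chain, was at 1052 to 1378 CPM and 1811, 1207 and 912 CPM. On the chemokine and cytokine list of 19 genes these 3 chemokines rose and 2 genes fell. Il18, a cytokine of the interleukin-1 family, was at 5.97 to 18.6 CPM in PBS and at 2.44, 4.48 and 1.27 CPM with antibody (log2 -1.87 ± 0.47, adjusted p = 0.0209). Il15, which sustains NK cells, was at 13.6 to 16.3 CPM in PBS and at 7.57, 9.34 and 6.72 CPM (log2 -0.89 ± 0.26, adjusted p = 0.0366). Every call among these genes was lost in at least 1 fit that leaves out a library: without antibody library 1 (9, adjusted p 0.0757 to 0.962) and antibody library 3 (3, adjusted p 0.064 to 0.126). Calls were also lost without PBS library 1 (4, adjusted p 0.055 to 0.0709), PBS library 2 (7, adjusted p 0.0538 to 0.0883), PBS library 3 (7, adjusted p 0.0509 to 0.0838), PBS library 4 (5, adjusted p 0.0601 to 0.0745) and PBS library 5 (7, adjusted p 0.0516 to 0.0839).

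**Figure D4:**
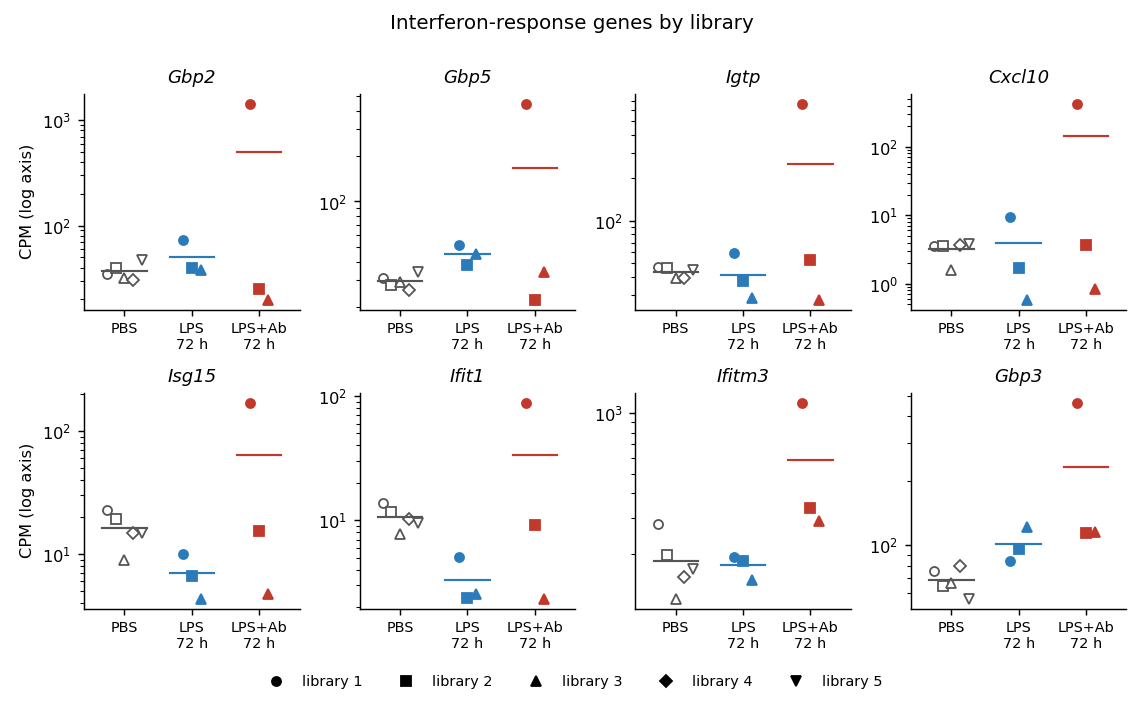
CPM (y axis, log scale) of 8 interferon-response genes in each PBS library, each library of LPS alone at 72 h and each library of LPS with antibody (Ab) at 72 h; lines are group means. Antibody library 1 (circles) is the highest point for every gene, and libraries 2 and 3 lie in or below the PBS range for Gbp2, Isg15 and Ifit1.

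Because these genes share a library pattern, their promoters were read for the interferon-stimulated response element, here GAAA, any 2 bases, then GAAA, on either strand. The window searched in every promoter was the 250 bases before the annotated start in RefSeq (GRCm38.p6). It is printed for 4 of the genes above, all of which hold a match, and capitals mark the matched letters.
Gbp2, chr3:142620413-142620662, plus strand: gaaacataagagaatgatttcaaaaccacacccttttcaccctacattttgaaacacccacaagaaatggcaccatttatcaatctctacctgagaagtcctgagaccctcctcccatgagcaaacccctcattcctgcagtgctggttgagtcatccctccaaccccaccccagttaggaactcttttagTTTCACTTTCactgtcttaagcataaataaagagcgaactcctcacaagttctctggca
Igtp, chr11:58199306-58199555, plus strand: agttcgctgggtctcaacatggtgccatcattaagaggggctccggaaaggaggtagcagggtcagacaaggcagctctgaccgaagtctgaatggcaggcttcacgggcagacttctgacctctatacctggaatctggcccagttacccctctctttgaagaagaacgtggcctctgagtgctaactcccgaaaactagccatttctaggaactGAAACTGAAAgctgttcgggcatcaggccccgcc
Isg15, chr4:156200819-156201068, minus strand: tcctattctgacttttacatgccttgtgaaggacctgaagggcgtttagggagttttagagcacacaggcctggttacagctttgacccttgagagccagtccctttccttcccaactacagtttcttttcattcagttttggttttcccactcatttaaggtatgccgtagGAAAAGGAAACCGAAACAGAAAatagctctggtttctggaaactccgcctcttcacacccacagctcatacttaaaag
Cxcl10, chr5:92348890-92349139, minus strand: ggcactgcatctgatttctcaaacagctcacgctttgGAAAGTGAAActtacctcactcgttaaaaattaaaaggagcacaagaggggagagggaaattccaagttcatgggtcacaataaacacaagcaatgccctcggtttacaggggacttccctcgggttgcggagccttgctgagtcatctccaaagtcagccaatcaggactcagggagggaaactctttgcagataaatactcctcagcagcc
The match begins 59 bases before the start in Gbp2, 34 in Igtp and 213 in Cxcl10, and Isg15 holds 3 overlapping matches between 78 and 66 bases before its start. In all, 9 of 12 promoter windows found for the GBP and IRG list (75.0%) and 10 of 22 for the type I effector list (45.5%) held the motif, against 978 of 32851 windows of all genes (2.98%). RefSeq windows were found for 11 of the 18 and 20 of the 28 genes. Of the 16 windows of the chemokine and cytokine list, which includes Cxcl10, 1 held it (6.25%). None of the 23 windows of the ribosome biogenesis genes and none of the 25 of the glycolysis genes held it. The gamma-activated site TTCNNNGAA was in 6 of the 12 GBP and IRG windows, in 4 of the 22 type I effector windows, in none of the 16 chemokine and cytokine windows and in 7.02% of all windows. A match is a description of the letters and not evidence of binding.

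Antibody library 1 also differed in erythroid genes. Of 20 erythroid genes 14 lay above all PBS libraries in library 1, none in library 2 and 1 in library 3, while 6, 11 and 19 lay below. Over all tested genes 33.6%, 25.5% and 32.1% lay above and 33.3%, 28.5% and 36.3% lay below, so the 6 in library 1 are near that share. The list summed to 2518, 567.6 and 296.6 CPM in antibody libraries 1 to 3 and to 685.2 to 1158 CPM in PBS. Car1, carbonic anhydrase of early erythroid cells, was at 176, 68.6, 165, 127 and 37.1 CPM in PBS and at 702, 104 and 3.18 CPM with antibody. Aqp1, the water channel of red cells, was at 35.7 to 105 CPM and 352, 36.9 and 1.98 CPM. Klf1, the erythroid master factor, was at 5.47 to 16.5 CPM and 39.7, 6.63 and 0.495 CPM. Gata1 was at 10.2 to 27.8 CPM and 71.3, 13.9 and 3.32 CPM. Library 1 was thus highest and library 3 lowest of the 8 for all 4. Adult globin Hbb-bs went the other way, from 45.8, 38.3, 38.3, 20.2 and 77.8 CPM in PBS to 4.88, 2.8 and 0 CPM (log2 fold change -4.13 ± 1.18 SE, adjusted p = 0.0342); its close copy Hbb-bt can share reads. The 0 in library 3 allows up to 0.212 CPM (3 reads), and 7 of the 20 erythroid genes, the globins Hba-a1 and Hba-a2 among them, were at 0 reads there. That call was lost without antibody library 1, 2 or 3 (adjusted p = 0.062, 0.0703 and 0.0911) and without PBS library 2, 3 or 5 (adjusted p = 0.0582, 0.0545 and 0.071). The part of erythroid cells in the interferon pattern of library 1 was not tested.

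The libraries held RNA of HSPC markers. Kit, the stem cell factor receptor, was at 407, 347, 426, 332 and 482 CPM in PBS and at 589, 334 and 247 CPM with antibody, and Cd34 at 634, 658, 651, 686 and 825 CPM and 339.8, 530.3 and 468 CPM (adjusted p = 0.0668). Flt3, the receptor of multipotent progenitors, was at 399, 484, 433, 344 and 567 CPM and 71.4, 312 and 196 CPM (adjusted p = 0.0653). Kit overlapped between the groups, and Cd34 and Flt3 did not overlap but missed the threshold. Ly6a, which encodes the stem cell antigen Sca-1 and responds to interferon, was at 85.2, 76.3, 38.3, 32.6 and 76 CPM and 632, 84.9 and 64.7 CPM (adjusted p = 0.0535), high in library 1. Of 15 stem and progenitor surface genes, Cd27, a costimulatory receptor, was the 1 called lower, at 143, 138, 143, 130.2 and 173 CPM in PBS and 37, 85.7 and 80.4 CPM (log2 fold change -1.10 ± 0.30 SE, adjusted p = 0.0278).

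Stem cell transcription factors gave 5 of 20 lower and none higher (median log2 fold change -0.33), and 5 had a positive log2 fold change. The list summed to 1548, 1524 and 1274 CPM with antibody and to 1501 to 2141 CPM in PBS. Antibody libraries 1 and 2 thus lay inside the PBS range. Lmo2, Etv6, Runx1 and Erg were among the genes not called. Mecom, which keeps long-term stem cells, was at 29.5, 27.6, 21.9, 15.3 and 40.9 CPM in PBS and at 5.55, 15.2 and 8.7 CPM with antibody (log2 fold change -1.46 ± 0.44 SE, adjusted p = 0.0403). Meis1, a HOX cofactor, was at 99.5, 100.4, 96.2, 69.4 and 139 CPM and 42, 64.7 and 45.6 CPM (log2 fold change -0.99 ± 0.24 SE, adjusted p = 0.0187). Prdm16, a regulator of stem cell maintenance, was at 14.8, 12.6, 13.4, 9.02 and 21.7 CPM and 5.21, 8.88 and 6.86 CPM (log2 fold change -1.03 ± 0.29 SE, adjusted p = 0.033). None overlapped, although the lowest PBS library of Mecom and Prdm16 lay just above antibody library 2. Ndn, necdin, was at 1.38 to 3.58 CPM in PBS and 0.0841, 1.03 and 0.354 CPM with antibody (log2 -2.35 ± 0.67, adjusted p = 0.0335). Zfp521 was at 12.5 to 25.5 CPM and 10.9, 12.1 and 7.14 CPM (log2 -0.81 ± 0.25, adjusted p = 0.0449), the remaining called gene. Hlf, a stem cell factor, was at 160.1, 131, 114, 82.7 and 189 CPM and 20.9, 84.5 and 41.9 CPM (log2 fold change -1.47), with library 2 just inside the PBS range, and was not called. The calls of these 5 factors and of Cd27 were lost without antibody library 1 (6, adjusted p 0.0807 to 0.141) and antibody library 3 (6, adjusted p 0.06 to 0.168). The same was seen without PBS library 1 (4, adjusted p 0.0509 to 0.061), PBS library 2 (4, adjusted p 0.0527 to 0.0825), PBS library 3 (3, adjusted p 0.0549 to 0.067) and PBS library 5 (5, adjusted p 0.0605 to 0.109). The count of 5 was 0 without antibody library 1, 0 without antibody library 3, 1 without PBS library 1, 1 without PBS library 2, 2 without PBS library 3, 1 without PBS library 5 and 0 without both PBS library 2 and antibody library 1.

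Few lymphoid genes were called, although most lay low in all antibody libraries. Of 22 lymphoid priming genes 19, 17 and 21 lay below all PBS libraries in antibody libraries 1, 2 and 3 (33.3%, 28.5% and 36.3% of all tested genes did), and none had a positive log2 fold change (median -1.32), yet 2 were called. H2-Ob, a class II accessory chain of B lineage cells, was at 110.1, 77, 71.7, 63.3 and 93.8 CPM in PBS and at 7.15, 52.7 and 16.9 CPM with antibody (log2 fold change -1.71 ± 0.46 SE, adjusted p = 0.0269). Notch1, the receptor of T lineage commitment, was at 178, 198, 209, 175 and 228 CPM and 83, 117 and 114 CPM (log2 fold change -0.92 ± 0.25 SE, adjusted p = 0.0279). Dntt, the terminal transferase of lymphoid progenitors, was at 709.9, 938, 731, 598 and 936 CPM and 19.7, 421 and 259 CPM, and was the gene in which library 1 lay farthest below all other libraries. Jchain, the immunoglobulin joining chain, was at 598, 1179, 304, 250.4 and 746 CPM and 37.3, 287 and 22.1 CPM (adjusted p = 0.0553). The count of 2 was 0 without antibody library 1, 6 without antibody library 2, 0 without antibody library 3, 1 without PBS library 2, 1 without PBS library 3, 4 without PBS library 4, 0 without PBS library 5, 0 without both PBS library 2 and antibody library 1 and 4 with upper-quartile scaling, and it was 9 with DESeq2 and 4 with voom.

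The list of T and NK cell markers gave 8 of 20 lower and none higher (median -1.54), and 3 had a positive log2 fold change. The 8 were Cd3d, Cd3e, Cd3g, Cd7, Gata3, Zap70, Lck and Tcf7. No NK receptor or cytotoxic granule gene on the list was called. In antibody library 1, 4 of the 20 lay above all PBS libraries, against 33.6% of all tested genes. Lck, the T cell kinase, was at 39.9, 53.3, 35, 34.6 and 50.9 CPM in PBS and at 9.92, 22.3 and 12.9 CPM with antibody (log2 fold change -1.51 ± 0.36 SE, adjusted p = 0.0168). Cd3d and Cd3e, of the T cell receptor complex, were near the detection limit, Cd3d at 0.702 to 4.26 CPM and 0.168, 0.28 and 0.0707 CPM (log2 -3.52 ± 0.94, adjusted p = 0.0269). Cd3e was at 0.421 to 3.19 CPM and 0.252, 0.28 and 0 CPM (log2 -3.30 ± 1.03, adjusted p = 0.0469). Cd7 was at 7.23 to 29.3 CPM in PBS and at 3.62, 4.67 and 5.8 CPM with antibody (log2 -1.66 ± 0.44, adjusted p = 0.026). Gata3, a T cell and innate lymphoid factor, was at 5.32 to 10.1 CPM in PBS and at 1.77, 3.36 and 1.91 CPM (log2 -1.62 ± 0.41, adjusted p = 0.0219). Tcf7 was at 9.19 to 20.9 CPM in PBS and at 5.63, 7.19 and 9.26 CPM (log2 -1.03 ± 0.31, adjusted p = 0.039), overlapping in library 3. The T and NK list summed to 135.2, 188.9 and 230.2 CPM with antibody and to 185.8 to 371.7 CPM in PBS, and 5 of the 20 genes, Cd3e among them, were at 0 reads in library 3. The count of 8 was 0 without antibody library 1, 3 without antibody library 2, 0 without antibody library 3, 5 without PBS library 1, 1 without PBS library 2, 4 without PBS library 3, 4 without PBS library 4 and 0 without both PBS library 2 and antibody library 1. Plasmacytoid dendritic cell markers gave 3 of 13 lower (median -0.87), with Ccr9, a chemokine receptor, at 6.08 to 19.7 CPM in PBS and 2.61, 4.3 and 1.06 CPM (log2 -2.09 ± 0.59, adjusted p = 0.0328). Runx2 was at 101 to 139.6 CPM in PBS and at 77.1, 84.9 and 78.2 CPM (log2 -0.62 ± 0.20, adjusted p = 0.0484). Siglech, their surface lectin, was at 23.1, 57.1, 14.3, 19.1 and 16.8 CPM and 7.82, 7.19 and 2.4 CPM (adjusted p = 0.0545). MHC class II genes gave 3 of 12 lower (median -0.62), H2-Ob among them. The classical chains H2-Aa and H2-Ab1 were not called. Below all PBS libraries lay 3, 10 and 11 of the 12 in antibody libraries 1 to 3, against 33.3%, 28.5% and 36.3% of all tested genes. The list summed to 1375, 718.1 and 683.5 CPM with antibody and to 966.4 to 1798 CPM in PBS, so library 1 lay inside the PBS range. H2-DMa, a peptide loading chain, was at 153, 165, 122, 159 and 147 CPM and 93.6, 95.5 and 76.3 CPM (log2 fold change -0.76 ± 0.17 SE, adjusted p = 0.0147). H2-Oa was at 16.1 to 20.8 CPM and 14.6, 11.6 and 9.55 CPM (log2 -0.65 ± 0.21, adjusted p = 0.0499). Cd74, the invariant chain, was at 235 to 493 CPM and 444, 161 and 154 CPM, with library 1 inside the PBS range (adjusted p = 0.421). None of the 12 lymphoid, T cell, dendritic and class II calls given here held in all fits that leave out 1 library. They were lost without antibody library 1 (11, adjusted p 0.0628 to 0.143), antibody library 2 (5, adjusted p 0.0554 to 0.116) and antibody library 3 (12, adjusted p 0.0626 to 0.178). Among PBS libraries, calls were lost without PBS library 1 (4, adjusted p 0.0557 to 0.0822), PBS library 2 (9, adjusted p 0.0505 to 0.0977), PBS library 3 (6, adjusted p 0.0509 to 0.0829), PBS library 4 (3, adjusted p 0.0577 to 0.0754) and PBS library 5 (5, adjusted p 0.0546 to 0.109).

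Macrophage genes were lower with antibody, and their PBS level was highest in 1 library. Of 22 macrophage markers 7 were called lower (median log2 fold change -2.49), and their sum was 623.1, 1145 and 487.6 CPM in antibody libraries 1 to 3 against 1175 to 6830 CPM in PBS, with PBS library 2 highest. No marker was at 0 reads in any antibody library. Adgre1, the macrophage surface protein F4/80, was at 16.4, 111, 25.6, 24.4 and 43.4 CPM in PBS and at 2.27, 14.1 and 6.93 CPM with antibody (log2 fold change -2.51 ± 0.64 SE, adjusted p = 0.0226). Cd5l, a secreted protein of tissue macrophages, was at 24.9, 219, 37.2, 41.5 and 75 CPM and 0.505, 19.6 and 0.919 CPM (log2 fold change -3.53 ± 1.07 SE, adjusted p = 0.0419). Cd163, the hemoglobin scavenger receptor, was at 32.7, 217, 63.2, 58.8 and 105 CPM and 14.9, 37.3 and 9.9 CPM (log2 fold change -2.21 ± 0.59 SE, adjusted p = 0.0273). For Adgre1 and Cd5l all antibody libraries lay below PBS, and for Cd163 antibody library 2 lay inside the PBS range. Mrc1, the mannose receptor, was at 26.8 to 266 CPM and 0.841, 33.5 and 2.69 CPM (log2 -3.05 ± 0.97, adjusted p = 0.0493). Mertk, the efferocytosis receptor, was at 5.53 to 66.7 CPM and 0.168, 6.91 and 0.141 CPM (log2 -3.40 ± 1.08, adjusted p = 0.0494), and like Mrc1 overlapped in library 2. Selenop, a selenium carrier, was at 120.5 to 393 CPM and 40.5, 106 and 67.9 CPM (log2 -1.53 ± 0.42, adjusted p = 0.029). Trf, transferrin, was at 141 to 489 CPM and 53.7, 148 and 94.5 CPM (log2 -1.44 ± 0.37, adjusted p = 0.0217). Vcam1, the adhesion molecule of marrow macrophages and stroma, was at 64.6, 681, 158, 122 and 288 CPM and 11.7, 109.7 and 4.1 CPM (adjusted p = 0.0752). Axl was at 41.3 to 397 CPM and 44.5, 55.6 and 5.38 CPM. The count of 7 was 0 without antibody library 1, 15 without antibody library 2, 0 without antibody library 3, 2 without PBS library 2, 4 without PBS library 3, 2 without PBS library 5 and 0 without both PBS library 2 and antibody library 1, and the median was -1.71 without PBS library 2. The part of macrophages sorted with the HSPC was not tested. The neutrophil list, of granule genes and some others, summed to 4226, 11700 and 13680 CPM with antibody and to 2734 to 15690 CPM in PBS. Of its 17 tested genes 1 was called, and it does not encode a granule protein. This was Ltc4s, leukotriene C4 synthase, at 2.38 to 4.88 CPM in PBS and 1.43, 2.15 and 0.99 CPM with antibody (log2 -1.32 ± 0.39, adjusted p = 0.0379). Mpo, myeloperoxidase, was at 4186, 2928, 7886, 10110 and 1938 CPM and 2678, 7062 and 7920 CPM. Elane, neutrophil elastase, was at 117 to 1960 CPM and 243, 742 and 1024 CPM, a range within PBS wider than any difference between the groups. None of 16 platelet, 14 mast cell and basophil and 8 tested stromal and endothelial genes was called. Of the 9 calls of these macrophage genes, Ltc4s and Hbb-bs, those lost were, without antibody library 1 (9, adjusted p 0.062 to 0.13), antibody library 2 (1, adjusted p = 0.0703) and antibody library 3 (9, adjusted p 0.0764 to 0.144). Calls were also lost without PBS library 2 (7, adjusted p 0.0579 to 0.117), PBS library 3 (5, adjusted p 0.0542 to 0.0691) and PBS library 5 (7, adjusted p 0.0533 to 0.0858).

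**Figure D5:**
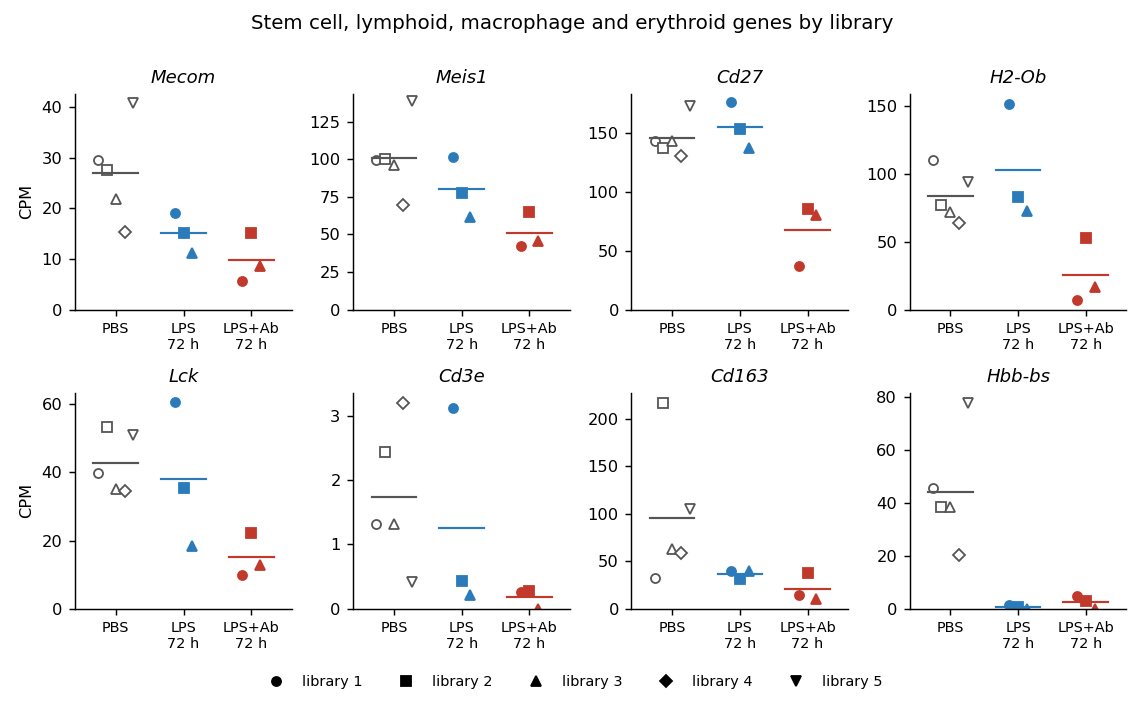
CPM (y axis, linear, from 0) of 8 stem cell, lymphoid, macrophage and erythroid genes in each PBS library, each library of LPS alone at 72 h and each library of LPS with antibody (Ab) at 72 h; lines are group means. PBS library 2 (open square) is the highest point for Cd163, and antibody library 2 (filled square) is the antibody library nearest to PBS for Mecom, Meis1, Cd27, H2-Ob, Lck and Cd163.

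Further genes with the greatest decreases among well-expressed, called, non-overlapping genes came from outside these lists. Tie1, an endothelial and stem cell receptor of the angiopoietin system, was at 51.7, 38.1, 54.3, 43.5 and 57.7 CPM in PBS and at 13.9, 26.8 and 15.8 CPM with antibody (log2 fold change -1.39 ± 0.24 SE, adjusted p = 0.00628). Nwd1 was at 84.4, 65, 86.7, 48.9 and 97.7 CPM and 15.1, 42.8 and 28.6 CPM (log2 fold change -1.41 ± 0.32 SE, adjusted p = 0.0148). Il12a, the p35 chain of interleukin-12 and interleukin-35, was at 59, 79.8, 58.3, 43.4 and 75.9 CPM and 14.6, 38.6 and 20.2 CPM (log2 fold change -1.37 ± 0.33 SE, adjusted p = 0.0175). For these 3, non-overlap of the groups was a condition of the choice and not a result. Pld3, a lysosomal nuclease, was at 40.8, 225, 54.6, 54.7 and 98.6 CPM and 18.5, 39.2 and 11 CPM (log2 fold change -2.05 ± 0.55 SE, adjusted p = 0.0278), with PBS library 2 highest as for the macrophage genes. Pglyrp2, a peptidoglycan-cleaving enzyme, was at 34.8 to 83.7 CPM in PBS and at 9.67, 32.9 and 21.6 CPM with antibody (log2 -1.43 ± 0.38, adjusted p = 0.0248). Igf2r, a lysosomal sorting receptor, was at 38.6 to 59.7 CPM in PBS and at 15.4, 25.6 and 14.8 CPM (log2 -1.40 ± 0.34, adjusted p = 0.019). Snn was at 34.9 to 67.4 CPM in PBS and at 19.1, 26.4 and 13.7 CPM (log2 -1.40 ± 0.32, adjusted p = 0.0158). Gimap1, a lymphocyte survival GTPase, was at 42.9 to 78.8 CPM in PBS and at 24, 30.1 and 12.7 CPM (log2 -1.39 ± 0.37, adjusted p = 0.0257). Of 14 tested adhesion and homing genes 2 were called higher and 2 lower (median log2 fold change -0.09), against 6.81% and 6.43% of all tested genes, and no more than 2 in either direction with any library left out. Robo4, which helps to keep stem cells in the niche, was at 12.1 to 27.6 CPM in PBS and at 4.21, 8.88 and 3.82 CPM with antibody (log2 -1.75 ± 0.52, adjusted p = 0.0376). Selplg, the P-selectin ligand, was at 247 to 336 CPM in PBS and at 163, 182 and 221 CPM (log2 -0.59 ± 0.15, adjusted p = 0.0237). Itgb1, the beta-1 integrin, was at 204 to 224 CPM in PBS and at 309.5, 246 and 273 CPM (log2 0.37 ± 0.11, adjusted p = 0.0374), and was not called with upper-quartile scaling. Gsn, gelsolin, an actin-severing protein, was at 43.7, 65.5, 45, 41.4 and 45.9 CPM and 15.7, 23.8 and 25.1 CPM (log2 fold change -1.16 ± 0.21 SE, adjusted p = 0.00791). Tie1 and Gsn kept the call whichever library was left out. Other calls given here were lost without antibody library 1 (10, adjusted p 0.0582 to 0.124), antibody library 2 (1, adjusted p = 0.0599) and antibody library 3 (9, adjusted p 0.0557 to 0.127). The same was seen without PBS library 1 (2, adjusted p 0.0513 to 0.0531), PBS library 2 (5, adjusted p 0.0543 to 0.0637), PBS library 3 (2, adjusted p 0.0539 to 0.0684), PBS library 4 (1, adjusted p = 0.0597) and PBS library 5 (5, adjusted p 0.0535 to 0.0839).

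Few genes of the interleukin-10 pathway itself were called against PBS. Of 19 genes of the receptor, its kinases, STAT3 and STAT3 targets 2 fell and none rose (median log2 fold change 0.13). Over all tested genes 6.43% fell and 6.81% rose. Il10ra, the ligand-binding chain, was at 37.6, 78.1, 50, 53.2 and 59.4 CPM in PBS and at 59.9, 27.6 and 32.8 CPM with antibody (adjusted p = 0.329). Il10rb was at 56.5, 96.3, 62.2, 64.1 and 74.7 CPM and 33.5, 50.5 and 60.5 CPM (adjusted p = 0.0869). Both overlapped between the groups. Stat3 was at 153 to 177 CPM and 297, 172 and 191 CPM, highest in library 1 (adjusted p = 0.0851). Il21r, the interleukin-21 receptor, was called lower, at 42.2, 44.4, 37.1, 44.4 and 36.7 CPM in PBS and at 15.8, 24.1 and 25.1 CPM (log2 fold change -0.92 ± 0.20 SE, adjusted p = 0.0129). Zfp36, the RNA-decay protein tristetraprolin, was at 118 to 163 CPM in PBS and at 74.9, 67.9 and 73.4 CPM (log2 -0.96 ± 0.31, adjusted p = 0.0498), and was the other gene called. Their calls were lost without antibody library 1 (2, adjusted p 0.0603 to 0.115), antibody library 2 (1, adjusted p = 0.114) and antibody library 3 (1, adjusted p = 0.12). Among PBS libraries, calls were lost without PBS library 1 (1, adjusted p = 0.066), PBS library 2 (1, adjusted p = 0.0961), PBS library 3 (1, adjusted p = 0.0677), PBS library 4 (1, adjusted p = 0.0764) and PBS library 5 (1, adjusted p = 0.0808). A receptor-blocking antibody acts on the protein, so RNA levels do not check the block.

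Single libraries stood apart in further genes, by the rule of distance from the 7 other libraries. Besides Dntt, library 1 lay lowest for Gria3, a glutamate receptor subunit (59.8 to 115 CPM in PBS, 15.4, 65 and 129 CPM with antibody), F13a1, the coagulation factor XIII A chain (91 to 600.3 and 24.6, 341 and 509 CPM), Bex6 (61.1 to 82.8 and 9.59, 36.5 and 56.8 CPM) and Plbd1 (33.6 to 108 and 7.4, 27 and 34.5 CPM). Library 2 lay highest for Chil3, a chitinase-like protein (2.1 to 79.4 and 6.56, 173 and 19.7 CPM), Ak4, a mitochondrial adenylate kinase (21.9 to 35 and 36.9, 65.3 and 33.6 CPM), and Ccl9, a chemokine (95.2 to 154 and 80, 300.1 and 186 CPM). Library 3 lay highest for Mtus1 (15 to 82.1 and 44.7, 89.9 and 206 CPM) and Atp11a, a phospholipid flippase (33.5 to 56.2 and 48.4, 62.6 and 127 CPM). It lay lowest for Aqp1 and Car1, given above, for Egr1, an immediate early factor (33.5 to 132 and 113, 50.2 and 2.83 CPM), for Axl and for Prg2, the eosinophil major basic protein (48.1 to 192 and 43.1, 78.8 and 6.43 CPM). These are descriptions of single libraries, chosen for their distance, and carry no test.

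Against LPS alone at 72 h (3 libraries), 2256 genes (15.1%) differed, 1289 higher (8.64%) and 967 lower (6.48%) with antibody. This contrast uses the same 3 antibody libraries as the comparison with PBS, so the contrasts are not independent. Ribosome biogenesis gave 20 of 24 genes higher, amino acid supply 12 of 20 and glycolysis 9 of 18, with none lower in any of the 3 lists. Ncl was at 1301, 1323 and 1259 CPM with LPS alone (log2 difference 1.24 ± 0.17 SE, adjusted p = 0.00122), below every antibody library. Slc7a5 was at 76.5, 77.3 and 91.5 CPM (log2 difference 1.60 ± 0.20 SE, adjusted p = 0.00122) and Ldha at 551, 636 and 494 CPM (log2 difference 1.33 ± 0.23 SE, adjusted p = 0.00293). The LPS libraries lay below every antibody library and within or below the PBS range for all 3. Among well-expressed, non-overlapping genes the greatest increases with antibody were Asns, at 14.4, 27.1 and 10.3 CPM with LPS alone (log2 difference 2.14 ± 0.42 SE, adjusted p = 0.00524), Rab11fip1, a vesicle recycling protein, at 16.1, 15.9 and 17.2 CPM against 131, 24.6 and 20.1 CPM (log2 difference 1.84 ± 0.57 SE, adjusted p = 0.0415), and Per1. For Rab11fip1 and Per1 antibody library 1 was far above the others; without it the adjusted p was 0.436 for Rab11fip1 and 0.186 for Per1, and both calls were also lost without LPS library 1, 2 or 3 (adjusted p 0.0723 to 0.128). The greatest decreases were in H2-Ob, at 152, 82.8 and 72.6 CPM with LPS alone (log2 difference -2.0 ± 0.49 SE, adjusted p = 0.0146), in Ahnak, a scaffold protein, at 152, 131 and 321 CPM against 39.5, 45.9 and 82.1 CPM (log2 difference -1.85 ± 0.49 SE, adjusted p = 0.0209), and in Gsn, at 90, 65.7 and 71.1 CPM (log2 difference -1.81 ± 0.24 SE, adjusted p = 0.00122). The H2-Ob call was lost without antibody library 3 or LPS library 1 (adjusted p = 0.052 and 0.0818), and that of Ahnak without antibody library 1 or 2 or LPS library 3 (adjusted p = 0.0827, 0.0647 and 0.0851). In the macrophage list 1 of 22 genes was higher and 1 lower with antibody than with LPS alone, and the median log2 difference was 2.11. For Vcam1, Mertk, Mrc1 and Cd5l only antibody library 2 stood far above the LPS libraries, and for Axl libraries 1 and 2 did. The part of library 2 in this median was not tested. The LPS-alone libraries summed to 1048 to 1314 CPM, near antibody library 2 and above antibody libraries 1 and 3. Cd5l was at 2.2, 1.86 and 0.512 CPM with LPS alone, below every PBS library, against 0.505, 19.6 and 0.919 CPM with antibody. Trf was at 207, 188 and 204 CPM with LPS alone, inside the PBS range and above every antibody library. Il10rb was lower with antibody than with LPS alone, where it was at 90.3, 93.8 and 91.7 CPM (log2 difference -0.93 ± 0.23 SE, adjusted p = 0.0157), a call lost without antibody library 1 or LPS library 1 (adjusted p = 0.0728 and 0.0545). The interferon GTPases Gbp2 and Igtp were at 73.2, 39.9 and 37.6 and 58.9, 37.8 and 28.3 CPM with LPS alone, far below antibody library 1. At these lower levels the LPS libraries showed the same order by number for Gbp2, Igtp, Isg15, Cxcl10 and Car1, with library 1 highest and library 3 lowest. Isg15 was at 9.99, 6.59 and 4.315 CPM, Cxcl10 at 9.53, 1.69 and 0.585 CPM and Car1 at 64.1, 14.6 and 0.146 CPM. For Cxcl9 (13.9, 2.62 and 3.66 CPM), Gbp5 (51.1, 38.2 and 45.1 CPM) and Ifit1 (5.04, 2.37 and 2.56 CPM) LPS library 1 was highest but library 3 was not lowest. Gbp3 went the other way, at 84.1, 95.8 and 121.9 CPM. Without LPS library 1 the number of called genes was 769, without LPS library 2 it was 1193 and without antibody library 1 it was 1417.

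Against the same treatment at 24 h (3 libraries), 0 of 14920 genes were called by edgeR (0%), 1 by DESeq2 and 0 by limma voom. Unadjusted, 635 genes (4.26%) had an edgeR p below 0.05. Levels at 24 h of genes called higher at 72 h against PBS were as follows. Ncl was at 2489, 3324 and 2485 CPM, Slc7a5 at 228, 344 and 194 CPM, Clec4e at 22.8, 34.2 and 34.5 CPM and Emilin2 at 131, 228 and 132 CPM, each library above the PBS range given for that gene. Of genes called lower at 72 h, Meis1 was at 39.4, 32.4 and 51.6 CPM, H2-Ob was at 14.3, 10.9 and 17.7 CPM and Gsn at 29.9, 19.7 and 22.8 CPM, each library below the PBS range. The division among the 72 h libraries was present among the 24 h libraries of the same numbers. Gbp2 was at 914, 41.9 and 24.6 CPM, Cxcl9 at 435, 18 and 0.406 CPM and Isg15 at 172, 35.9 and 4.63 CPM in 24 h libraries 1 to 3, and Car1 at 1111, 250.1 and 7.32 CPM. With antibody, library 1 was highest and library 3 lowest at both times for each of these 4 genes. With LPS alone at 24 h library 3 was highest for all 4. There Gbp2 was at 29.7, 27.6 and 64 CPM and Cxcl9 at 13.9, 5.42 and 20.9 CPM in libraries 1 to 3. Isg15 was at 52, 24.1 and 54.1 CPM and Car1 at 430.1, 208.5 and 490.1 CPM. The labels do not say what a number shares. An adjusted p above the threshold does not show that the times are alike.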

How the data were processed

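Gene counts per library were deposited by the authors as 1 table of whole read counts, not normalized. Per the submitters' processing notes, the tools included HISAT2 2.2.0, Subread, featureCounts 2.1.1, R 4.3.2 and DESeq2 with genome build GRCm38. The annotation, strand setting and treatment of multiply mapped reads were not given in the sources used here, so overlapping genes and close copies are uncertain.

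Of 35321 genes, 14920 were tested (edgeR's filterByExpr by group, minimum count 10 and total 15), with 99.93% of counts. edgeR 4.0.16 in R 4.3.3 fitted a quasi-likelihood model over all 17 libraries with TMM scaling and Benjamini-Hochberg adjustment (threshold 0.05), and each SE was derived from the fold change and its F statistic. DESeq2 1.42.0 and limma 3.58.1 (voom) were alternatives. The code was tested on simulated data.

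Named genes were the 10 greatest called changes each way among non-overlapping genes in the upper expression range, the 5 genes farthest each way for each antibody library, the 3 greatest each way against LPS alone, and members of listed gene groups. Members and lists were chosen with earlier results of these data known. Replicate numbers were not taken as pairs. Promoter windows are from RefSeq (GRCm38.p6).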

Additional observations from a re-analysis of the deposited data

Results flagged for a closer look

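Among 144 genes described in the report, 10 had 1 PBS library whose gap to the nearest of the other 4 was a large share of the range of all 5, above the critical value of 0.71 (Dixon's test). Chance gives such a gap in about 1 of 20 groups, and 10 of 144 is near that share.

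PBS library 2 was the one standing apart in 7 of the 10. It was the highest for the macrophage genes Cd5l, at 219.3 CPM against 74.95 CPM in the next library (gap share 0.7427), and Adgre1, at 111.3 against 43.37 CPM (0.7157). Siglech, of plasmacytoid dendritic cells, was at 57.14 against 23.12 CPM there (0.7937), and Tlr4 at 26.92 against 15.58 CPM (0.7535). Gsn stood at 65.49 against 45.9 CPM (0.8132) and Btg2 at 53.68 against 36.85 CPM (0.7321), whereas Asns was lowest in the library, at 18.42 against 32.13 CPM (0.7638). The calls of Gsn, Btg2 and Adgre1 held without PBS library 2 (Adgre1 at adjusted p = 0.046), and that of Cd5l was lost without it (adjusted p = 0.1).

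PBS library 5 was the highest for Foxo3, at 165.6 against 145.6 CPM (0.738), and for Cd34, at 824.7 against 686.3 CPM (0.7254). PBS library 3 was the lowest for Cxcl10, at 1.606 against 3.542 CPM (0.8864).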

How the results depend on the processing

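The number of genes called against PBS (1975) was within 1.5 times of the reported count with DESeq2 size factors (1984), upper-quartile factors (2007), DESeq2 (2866), no filter on low counts (1615), genes above the median mean level only (1340), robust fitting (1979) and a fit of the groups compared only (2363). It was 3053 with limma voom and sample quality weights, 655 with a 2-fold minimum, 583 to 2066 with 1 library left out, and 43 without both PBS library 2 and antibody library 1, an alternative chosen after seeing the data. Against LPS alone (2256) it was 4433 with voom, 1123 in a fit of the groups compared only, 711 with a 2-fold minimum and 769 to 2279 with 1 library left out. Against 24 h it was 1 with DESeq2 and 0 with each library left out.

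A replicate block over numbers 1 to 3 left 0 calls against PBS (3405 at an unadjusted p below 0.05), and no replicate block on the same 6 libraries also left 0 (3841 unadjusted). The block left 344 calls against LPS alone and 0 against 24 h. The deviations of same-numbered libraries from their group means correlated at 0.148, 0.198 and 0.07 against PBS, 0.267, 0.011 and 0.319 against LPS alone, and 0.723, -0.022 and 0.697 against 24 h, so not every pair exceeded 0.1. Against PBS each of the 3 antibody libraries correlated best with its own number, a hint from the data and not the design.

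The log2 fold change of 5 called genes turned sign. Without antibody library 1, with both libraries out, and at its highest with another library left out, it was -0.69, -0.66 and 4.34 for Gbp2, -0.05, -0.07 and 3.04 for Gbp5, -1.48, -1.42 and 5.89 for Cxcl9, -0.50, -0.47 and 6.08 for Cxcl10 and -0.16, -0.03 and 4.42 for Ccl5. Cxcl9 was at -0.19 with voom. Over the 97 named genes that were called and all alternatives, 1156 values kept direction and side of the threshold and 647 lost the threshold. Of 47 named genes that were not called, 18 turned sign under at least 1 alternative, Igtp, Iigp1, Tgtp1, Isg15, Ifit1, Car1, Aqp1, Klf1 and Gata1 among them, and 38 values gained the threshold. The cause was not tested, beyond the smaller number of libraries. Depth of 10516722 to 15597602 counts limits genes near the floor of 3 reads, such as Cd3e.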
